A study of Mus musculus with 1457 samples.

Results

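The cells described here are single cells that were sorted as hemogenic endothelium but carried next to no endothelial RNA. They came from E10.5 embryos, from the hemogenic endothelium (HE) gate of a mouse line with a red fluorescent reporter at Runx1b (genotype Runx1b:RFP/WT, strain ICR, cells titled het). Members were the gate's cells with reads of fewer than 4 of the 8 endothelial genes Cdh5, Pecam1, Kdr, Tek, Tie1, Emcn, Esam and Egfl7, at least 100000 reads and under 1% of reads in globin genes. The rule took 38.5% of the cells of that gate (exact 95% interval 32.6 to 44.7%), as 37 cells with none of the 8 genes, 37 with 1, 20 with 2 and 7 with 3, out of 1457 cells in the series. They are called non-endothelial gate cells below. Since the rule used the reads of the same cells, the low endothelial genes that chose them are a description and no result.

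Every cell was a Smart-seq2 library of polyadenylated RNA from the dissected aorta-gonad-mesonephros region, the tissue around the dorsal aorta. The HE gate took cells negative for TER119, CD41, CD45 and KIT and positive for CDH5 and the RUNX1b reporter. The comparison group was the mesenchyme gate (Mes) of the same line and genotype, which differed from the HE gate in that its cells were CDH5-negative. Both groups carry the reporter allele, so neither is wild type at Runx1. Of the Mes het cells, 96 had at least 100000 reads and under 1% globin reads. The remaining 130 cells of the HE gate with reads of 7 or 8 of the 8 endothelial genes and within the same limits, called endothelial-gene gate cells, were the second comparison group. Mes cells of genotype Runx1b:RFP/RFP (85 within the limits, called Mes KO) are given for reference. Further HE-gate cells were titled KO but listed as Runx1b:RFP/WT in the genotype field.

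Hemogenic endothelium is the part of the aortic wall from which the first blood stem cells emerge, and it is defined by endothelial genes together with Runx1. The aorta is wrapped by mural cells, namely smooth muscle cells, which carry contractile proteins such as smooth muscle actin, and pericytes, which are known for Pdgfrb, Rgs5 and Cspg4. Mesenchymal cells below the aorta are also known to express Runx1, and mural and mesenchymal cells secrete signals such as Cxcl12 and Kit ligand that act on blood stem cells.

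Each cell was a sample of its own and no label named an embryo or litter, so each group counted as 1 sample. No test across samples was possible, and no p-value is given. For each group the reads of a gene were added up over its cells and scaled to counts per 1e6 reads (CPM), with exact 95% intervals that cover counting error only. The non-endothelial gate cells held 61228159 reads (median per cell 566837, lowest 314366, highest 1209203) with a median of 6745 genes per cell. The Mes het cells held 58013094 reads (median 620560) and the endothelial-gene gate cells 72450067 (median 535678). The median share of mitochondrial reads was 2.44% in the non-endothelial gate cells, 3.68% in Mes het cells and 3.52% in endothelial-gene gate cells.

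The split between both kinds of gate cell was wide. The members made up 43.7% of the gate cells within the limits. No cell of the gate had reads of 4, 5 or 6 of the 8 endothelial genes, 6 cells had 7, and the rest of the 130 endothelial-gene gate cells had all 8. The 7 cells just inside the rule had 108.7 to 1133 CPM over 29 other endothelial genes, and all 7 had reads of at least 5 of the 6 given markers Acta2, Actg2, Rgs5, Pdgfrb, Cspg4 and Col1a1. The 6 cells just outside it had 15532 to 28124 CPM over the same 29 genes, and none had 5 of the markers. The other 31 cells of the gate were left out for globin reads, and 30 of these also had fewer than 4 endothelial genes.

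**Figure D1:**
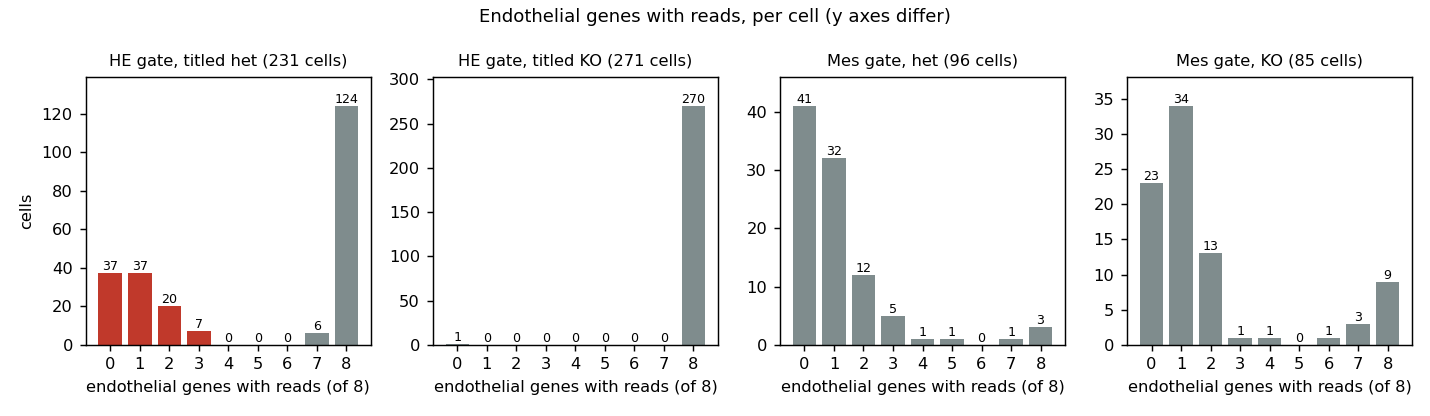
Number of cells (y axis, differing scales) by the number of 8 endothelial genes with reads (x axis) in the HE gate titled het, the HE gate titled KO, and the Mes gate of both genotypes, for cells within the limits. The red bars are the non-endothelial gate cells. No cell of that gate had 4 to 6 of the genes, while 270 cells titled KO had all 8 and 1 had none.

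Among the sorts of endothelial and hemogenic cells, nearly all cells that met the rule came from 1 gate. The same rule took 1 HE-gate cell titled KO (0.361%), 1 of 95 HE-gate cells of the Gfi1 reporter line, and 1 of 41 cells of the endothelial sort whose stage labels conflict. It took none in the other sorts of the Gfi1 line or in the Runx1b endothelial sort, where 0 of 53 cells allows a share of up to 5.66%. The single cell titled KO had all 6 markers, with 4161 CPM of Acta2 and 2538 CPM of Col1a1. The cell of the Gfi1 HE gate had 2 markers and no Acta2 reads. The cell of the endothelial sort had none of the markers and 7347 CPM over the 29 other endothelial genes. In the Mes gate, by contrast, the rule took 84.1% of het cells and 71 of 91 KO cells.

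The cells also stood together by the running numbers in their titles. None of the 59 gate cells numbered 413 to 557 met the rule. The others lay in 4 unbroken runs of gate numbers, called blocks 1 to 4 here. The rule took 16 of 36 cells numbered 629 to 664 (44.4%), 27 of 60 numbered 725 to 784 (45%), 21 of 40 numbered 814 to 853 (52.5%) and 37 of 67 numbered 910 to 976 (55.2%). Each of these runs directly followed a run of Mes het cells, of which 12, 17, 16 and 17 were within the limits. The labels do not say what the numbers stand for, and whether a shared plate, sort or day lies behind the blocks was not tested. Of the 96 Mes het cells, 62 belonged to the blocks and 34 had lower numbers, and 13 of those 34 expressed leukocyte genes while none of the 62 did. Results are therefore also given within blocks and against the 62 Mes cells of the same blocks. Within blocks 1 to 4 the median mitochondrial share of the non-endothelial gate cells was 2.78, 2.46, 2.29 and 2.37%. It was 2.60, 2.79, 2.76 and 2.60% in the endothelial-gene gate cells, so the pooled difference between both kinds of gate cell was smaller there. In the Mes het cells it was 3.06, 2.63, 4.39 and 2.82%.

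The given markers had reads in nearly all of the cells. At least 5 of the 6 had reads in 96 non-endothelial gate cells (95%), in 40 of 96 Mes het cells, in 46 of 85 Mes KO cells and in 1 of 130 endothelial-gene gate cells. All 6 had reads in 81, 20, 24 and 1 of these cells. The markers were named with these data in view, so the values describe the group and support nothing further. Of all 11666 genes measured (at least 5 CPM in either sum), 5.36% were at least 2-fold higher than in Mes het cells and 13.2% at least 2-fold lower, and 5 of the 6 markers were among the higher ones. Within each of the 4 blocks, 1.03% of genes were at least 2-fold higher and 1.6% lower every time, and Acta2, Actg2 and Cspg4 were among the higher ones.

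Acta2, smooth muscle actin, stood at 14569.9 CPM in the non-endothelial gate cells, at 4171 CPM in Mes het cells and at 211.2 CPM in endothelial-gene gate cells. It had reads in 98% of cells (per-cell median 13596 CPM, highest 39957), against 62.5% of Mes het cells, whose median was 16.2 CPM but whose highest cell reached 38426 CPM. The distributions overlapped, since a subset of Mes cells was as high as the gate cells. In endothelial-gene gate cells 50 of 130 had Acta2 reads, with a median of 0 and 1 cell at 12924 CPM, so that a read of Acta2 alone does not mark a cell. The difference from Mes het cells was 1.80 on the log2 scale, and 2.23, 2.21, 1.21 and 2.20 within blocks 1 to 4.

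Actg2, the smooth muscle actin of visceral muscle, was at 1454 CPM in the non-endothelial gate cells (86.1% of cells), 286 CPM in Mes het cells (32 of 96) and 12.9 CPM in endothelial-gene gate cells (4 of 130). Rgs5, a pericyte regulator of G-protein signalling, was at 1525 CPM (99% of cells), 481 CPM (46 of 96) and 11.2 CPM (8 of 130). Cspg4, the NG2 proteoglycan of pericytes, was at 334 CPM (96% of cells), 95.2 CPM (41 of 96) and 8.34 CPM (3 of 130). These 3 genes were at least 2-fold higher than in the Mes het cells of the same block in 4, 3 and 4 of 4 blocks. Pdgfrb, the receptor through which pericytes are recruited, was at 461 CPM (94.1% of cells), 252.5 CPM (66 of 96) and 14.9 CPM (4 of 130). Its difference from Mes het cells was below 2-fold, with log2 values of -0.07, 0.74, 0.03 and 0.80 within the blocks. Col1a1, the main fibrillar collagen chain, was at 4673 CPM (100% of cells), 1893 CPM (72 of 96) and 77.3 CPM (13 of 130). The per-cell median of each of these genes was 0 in endothelial-gene gate cells, so their sums there rest on few cells. Col1a1 was at 1.05, 1.19, 0 and 461.5 CPM in the endothelial-gene gate cells of blocks 1 to 4, and its highest cell there reached 8230 CPM.

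**Figure D2:**
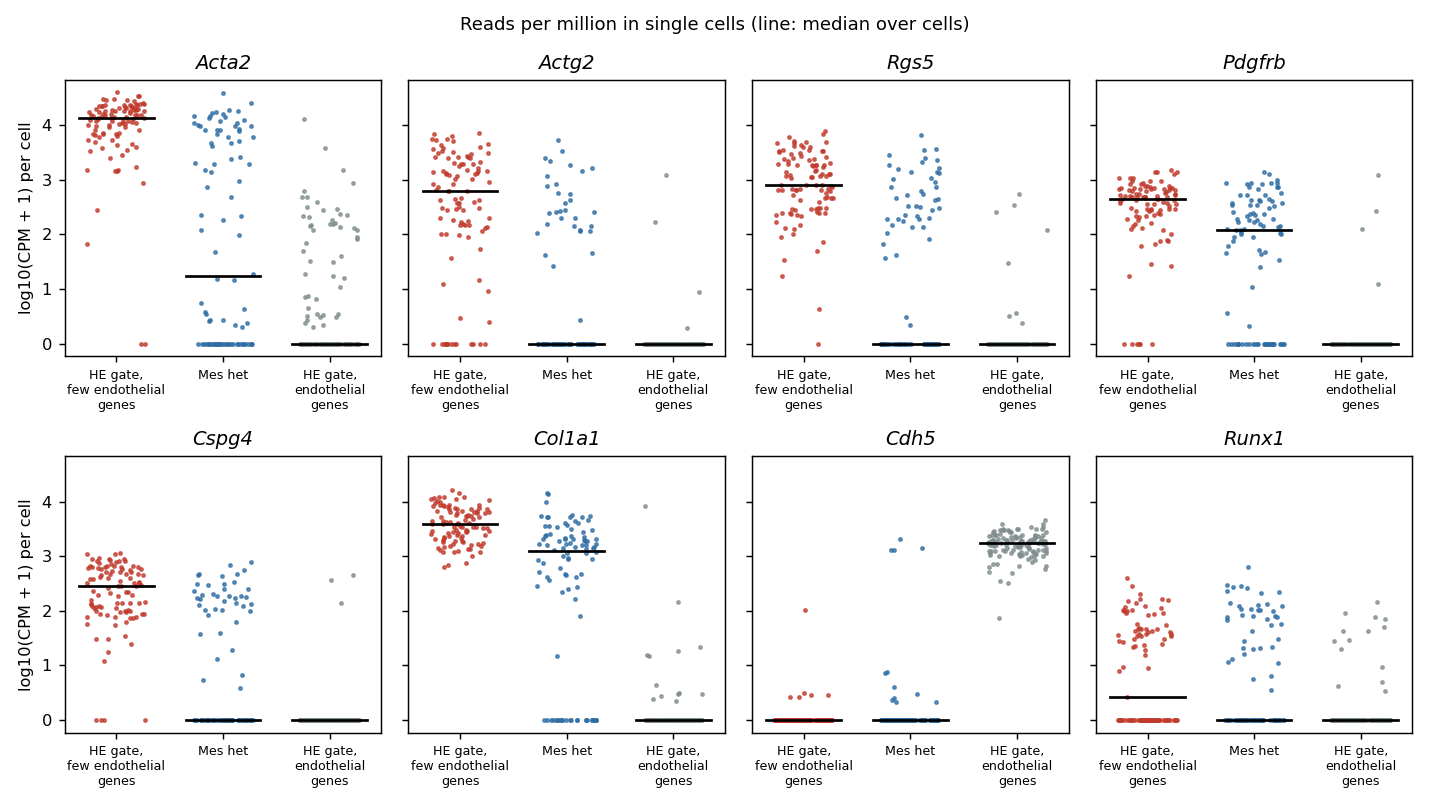
Each point is 1 cell, with log10(CPM + 1) on the y axis, for the 6 markers, the gate gene Cdh5 and Runx1 in the non-endothelial gate cells (red), 96 Mes het cells (blue) and 130 endothelial-gene gate cells (grey). Lines are medians over cells. The red cells lie high for the 6 markers and at 0 for Cdh5 in all but 5.94% of cells, and part of the blue cells overlap them.

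When the Mes het cells were narrowed to the 40 with at least 5 of the markers, much of the difference in these markers was gone. Acta2 was at 9273 CPM in those 40 cells, a log2 difference of 0.65 in place of 1.80. Actg2 kept a difference of 1.14, while Rgs5 (0.49), Cspg4 (0.87) and Col1a1 (0.43) came under 2-fold. Pdgfrb, already under 2-fold against all Mes het cells, was at 0.13. Since these 40 cells were picked by the same markers, after the data were seen, their nearness in them is fixed by the choice. Over all 11150 genes measured in that comparison 7.57% were at least 2-fold higher and 6.75% lower.

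The contractile genes as a group were higher than in Mes het cells. Of 20 genes on the list, 19 were measured, 8 were at least 2-fold higher and 1 (Itga8, an integrin chain) lower, with a median log2 difference of 0.96 against -0.13 for all measured genes. Over all measured genes 5.36% were higher and 13.2% lower. Acta2 and Actg2, among the 8, are given markers that were named with these data in view. Myl9, a regulatory myosin light chain, was at 5245 CPM against 2004 CPM. Cnn1, calponin, was at 512 CPM against 190 CPM and had reads in 92.1% of cells against 45.8%, and in 3 of 130 endothelial-gene gate cells. Myh11, the smooth muscle myosin heavy chain, was at 441 CPM (78.2% of cells) against 135.1 CPM (22.9%) and 4.72 CPM in endothelial-gene gate cells (2 of 130). Acta2, Actg2, Cnn1 and Csrp1, a LIM-domain protein of smooth muscle, were at least 2-fold higher in every block. Against the 40 marker-positive Mes cells the list had 2 higher and 2 lower of 19, with a median of 0.13. Those cells were picked by markers that are partly on this list, so the nearness is in part fixed by the choice.

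Tagln, a further smooth muscle gene, had reads in 93.1% of the cells but only 21.2 CPM, against 24.3 CPM in Mes het cells. Other annotated genes overlap 67.9% of its exon bases, so its counts are uncertain. The actin genes Acta1, Acta2, Actc1 and Actg2 are near-identical in their coding parts, and how reads were split among them is uncertain too. Actc1, the cardiac actin, was at 5133 CPM (94.1% of cells) against 1800.2 CPM (39.6%). Acta1, the skeletal actin, was at 336 CPM against 17.05 CPM, and 1 cell gave 42.2% of its reads. Of 10 measured genes of striated muscle, 4 were higher (Actc1, Acta1, Tnni1 and Myh7) and 5 lower, with a median of -0.29. Against the Mes cells of the same blocks 2 of 12 were higher and 7 lower, with a median of -2.22. The myogenic factors Myod1, Myog and Myf5 were each at 0.0327 CPM or lower.

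Across the non-endothelial gate cells, Acta2 varied together with other contractile genes. The 5 genes most like it by Spearman correlation of per-cell CPM, among 8430 genes with reads in at least 25% of the cells, were Myl9 (rho 0.83), Myl6 (0.81), Cnn1 (0.70), Hspb1 (0.70) and Actc1 (0.70). Within the 4 blocks the values were 0.72 to 0.87 for Myl9, 0.74 to 0.81 for Myl6 and 0.59 to 0.78 for Actc1. Cells of 1 library set share depth and preparation, so these are descriptions with no p. The promoters of 3 of these genes, Myl9, Myl6 and Actc1, and that of Acta1 hold a CArG box, the element bound by SRF, whose partner myocardin drives smooth muscle genes. They are shown because these genes varied with Acta2 or, as Acta1, were far above Mes het cells, and share the element. They were chosen after the boxes had been found. Myl6 has 2 promoters in the table, and the other one held no box. The sequences are the 250 bases before the start site from RefSeq on GRCm38.p6, 5′ to 3′ on the gene's strand, with the box in capitals.
Myl9, chr2:156775214-156775463, plus strand: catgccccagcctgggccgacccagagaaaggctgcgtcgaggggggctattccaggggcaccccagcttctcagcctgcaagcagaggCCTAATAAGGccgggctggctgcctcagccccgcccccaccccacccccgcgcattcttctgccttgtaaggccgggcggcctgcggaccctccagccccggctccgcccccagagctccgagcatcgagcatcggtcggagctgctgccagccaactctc
Actc1, chr2:114052876-114053125, minus strand: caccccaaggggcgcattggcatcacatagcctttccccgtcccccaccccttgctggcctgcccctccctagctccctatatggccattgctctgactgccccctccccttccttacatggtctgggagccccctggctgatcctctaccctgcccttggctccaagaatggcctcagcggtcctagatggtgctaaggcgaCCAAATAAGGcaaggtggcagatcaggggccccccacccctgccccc
Myl6, chr10:128493010-128493259, minus strand: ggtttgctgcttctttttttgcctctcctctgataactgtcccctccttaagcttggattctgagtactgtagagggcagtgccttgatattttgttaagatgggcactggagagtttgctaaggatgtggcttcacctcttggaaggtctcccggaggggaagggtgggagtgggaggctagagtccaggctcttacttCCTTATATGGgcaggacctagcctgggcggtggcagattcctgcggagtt
Acta1, chr8:123894776-123895025, minus strand: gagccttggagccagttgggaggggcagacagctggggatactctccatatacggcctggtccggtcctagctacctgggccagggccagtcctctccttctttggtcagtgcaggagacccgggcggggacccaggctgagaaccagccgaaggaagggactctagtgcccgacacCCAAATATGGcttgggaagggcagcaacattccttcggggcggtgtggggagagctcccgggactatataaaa
The box ended 38 bases before the start of Actc1, 41 before that of Myl6 and 64 before that of Acta1, and lay further upstream in Myl9. RefSeq's table held 40 promoters for 34 of the 39 genes of the contractile and striated muscle lists, and 5 of the 40 had the box (12.5%), Myl7 being the other. Of all 32851 promoters listed, 482 had it (1.47%). As a pattern, the box is CC, then a run of only A or T, then GG. A match to that pattern on one strand is also a match on the other, though the letters of a given box can differ. Such a match is a description and no measured site. The windows of Acta2 and Cnn1 held no exact match, which says only that these letters are not in those 250 bases. The Acta2 window does hold the near matches ccctatatgg and ccttgtttgg, where a C or a G interrupts the run of A or T. A search for exact matches does not count these, so it cannot show that the element is missing from Acta2.

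Myocd, which encodes myocardin, was at 216.01 CPM in the non-endothelial gate cells (83.2% of cells), 48.7 CPM in Mes het cells (34.4%) and 4.15 CPM in endothelial-gene gate cells (2 of 130). Its log2 difference from Mes het cells was 2.15 and at least 1.47 in every block. Against the 40 marker-positive Mes cells, at 99.8 CPM, it was 1.11. Srf itself did not differ 2-fold (50.97 CPM against 52.4 CPM).

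Of the pericyte genes, 10 of 12 were measured, 6 were at least 2-fold higher than in Mes het cells and none lower, with a median log2 difference of 1.16 (all measured genes: 5.36% higher, median -0.13). Against the 40 marker-positive Mes cells 1 of 11 was higher and 1 lower, with a median of 0.27. Pdgfrb, Rgs5 and Cspg4 on this list are among the markers by which those 40 cells were picked. Besides Rgs5 and Cspg4, the 6 genes higher than in all Mes het cells were Mcam, an adhesion molecule of mural and endothelial cells (644 CPM against 292 CPM), Ndufa4l2 (49.3 against 14.9), Rgs4 (98.7 against 32.03) and Vtn (29.7 against 13.2). Of the 6, only Cspg4 was at least 2-fold higher in every block. Kcnj8 and Abcc9, the 2 parts of the pericyte potassium channel, had reads in 20.8% and 26.7% of the cells (2 and 3 of 130 endothelial-gene gate cells) and differed by under 2-fold. Higd1b had no reads in any cell, which allows up to 2.97% of cells with a read and says nothing of transcripts that were not captured. Rgs5 had its own set of like genes, among them Unc5c (rho 0.66), Frzb (0.60), Efhd2 (0.57) and Gata3 (0.55), with every value within a block at 0.46 or above. Acta2 and Rgs5 were near unrelated over the cells (rho -0.07, and -0.29 to 0.06 within blocks). Other pairs of markers were positive in every block, such as Acta2 with Actg2 (0.14 to 0.58) and Pdgfrb with Rgs5 (0.21 to 0.31). Others changed sign between blocks, such as Acta2 with Pdgfrb (-0.25 to 0.19).

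**Figure D3:**
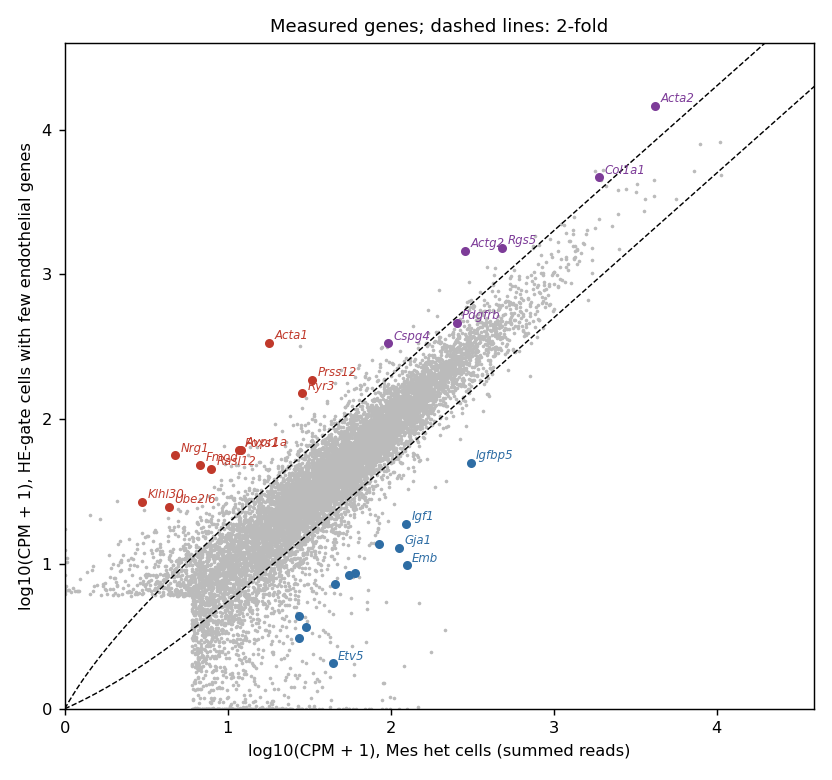
Each grey point is 1 of 11666 measured genes, with log10(CPM + 1) of summed reads in Mes het cells on the x axis and in the non-endothelial gate cells on the y axis. Dashed lines mark 2-fold, purple points are the 6 markers, and red and blue points are genes named as the highest and the lowest by the naming rule. Acta1 and Nrg1 stand far above the upper line and Igfbp5 below the lower one.

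The genes furthest above Mes het cells included several outside the mural lists. Nrg1, the growth factor neuregulin, was at 55.4 CPM against 3.76 CPM, and at 15.6 CPM in endothelial-gene gate cells. Fmod, a small proteoglycan that binds collagen, was at 47.6 CPM against 5.79 CPM. Foxs1, a forkhead factor known from pericytes, was at 59.97 CPM against 10.7 CPM, and Avpr1a, the vasopressin receptor of vascular muscle, at 60.4 CPM against 11 CPM. These 4 genes, Acta1, Klhl30 and Ube2l6 were at least 2-fold higher in every block and against the 40 marker-positive Mes cells. Ube2l6 turned to a log2 value of -1.18 when the Mes cells outside the limits were kept. Other genes among the highest were Rasl12 (44.4 against 6.95 CPM), Prss12 (185.2 against 31.9) and Ryr3 (150 against 27.6, an intracellular calcium channel), and each was at least 2-fold higher in 3 of 4 blocks.

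On the lower side, Igfbp5, a secreted binder of insulin-like growth factors, was the one with the highest level. It was at 49.2 CPM against 308 CPM in Mes het cells, lower in every block (log2 -4.52 to -2.0) and also lower than in the 40 marker-positive Mes cells (-2.77). Igf1, one of the growth factors it binds, was at 18 CPM against 123.6 CPM, again lower in every block. Gja1, connexin 43, was at 11.97 CPM against 110.9 CPM and lower in every block, but level with the marker-positive Mes cells (11.4 CPM). Hpcal1 and Adat1 were lower in every block and against those 40 cells. Of the other 7 genes on this side, Cfp was lower in every block too. Etv5, Emb, Lin28b, Arl5c, Ifi30 and Ly6e were not, and Emb, Cfp, Ifi30, Arl5c and Ly6e came within 2-fold of the 40 marker-positive Mes cells. The 13 leukocyte-gene cells among Mes het moved with these genes: without them Emb went from -3.82 to -1.68 and Ly6e from -2.74 to -0.83.

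The levels of collagens and of a set of other genes shifted between blocks. Col1a1 was at 1964, 6447, 2181 and 6553 CPM in the non-endothelial gate cells of blocks 1 to 4, so blocks 2 and 4 were high and blocks 1 and 3 low. Igf2, the fetal growth factor, followed the same order (1685, 5402, 1903 and 5310 CPM), as did H19, the imprinted RNA beside it (1779, 5928, 1937 and 5906 CPM). Other genes overlap 64.5% of the exon bases of Igf2, so its count is uncertain. The endothelial-gene gate cells showed the same alternation, with Igf2 at 1894, 5318, 1860 and 4876 CPM. The Mes het cells showed it less, with Igf2 at 1741, 3219, 1823 and 3379 CPM. The shift moved with the block in both kinds of gate cell, and its source was not tested. Acta2 ran the other way in the non-endothelial gate cells (18518, 11210, 18710 and 12026 CPM). A median of 6187.5 and 6242 genes per cell in blocks 1 and 3 stood against 6833 and 7034 in blocks 2 and 4.

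**Figure D4:**
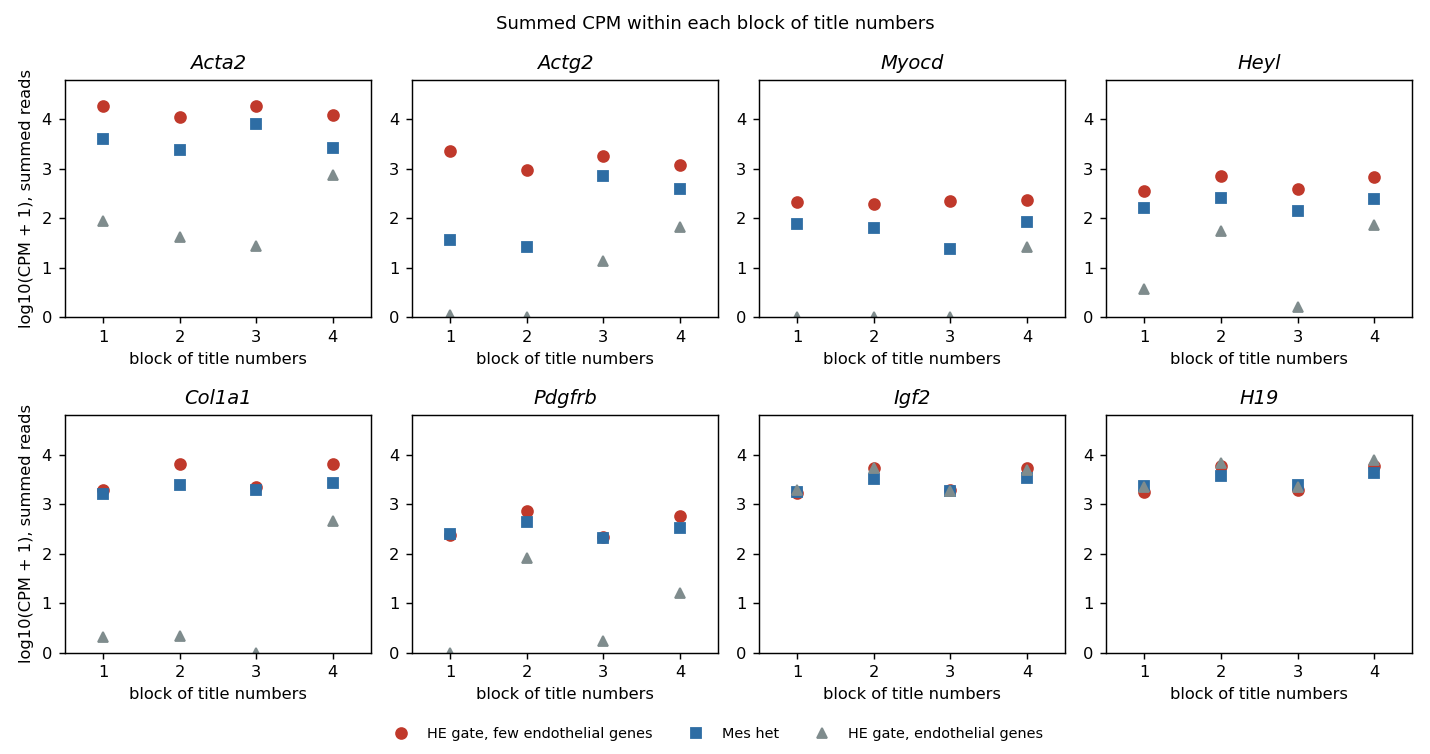
Log10(CPM + 1) of summed reads (y axis) in each of the 4 blocks of title numbers (x axis) for the non-endothelial gate cells (red circles), Mes het cells (blue squares) and endothelial-gene gate cells (grey triangles). Acta2, Actg2, Myocd and Heyl are above the Mes cells in every block, while Col1a1, Igf2 and H19 are high in blocks 2 and 4.

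Comparisons of matrix genes with Mes het cells also differed between blocks. Col1a1 differed from the Mes cells of the same block by log2 values of 0.30, 1.38, 0.17 and 1.31, and Col3a1 by -0.47, 0.94, -0.24 and 0.69. Of 23 measured fibroblast and mesenchyme genes, 7 were at least 2-fold higher than in all Mes het cells and 2 lower, with a median of 0.62. Over all measured genes the shares were 5.36% and 13.2%. Of the same 23 genes, 2 were higher and none lower against the 40 marker-positive Mes cells, with a median of 0.19. Postn, periostin, a matrix protein of the outer vessel wall and valves, was the 1 gene of this list that was at least 2-fold higher in every block (886 against 302 CPM, 98% against 46.9% of cells, and 5 of 130 endothelial-gene gate cells). Fn1, fibronectin, was at 4464 CPM against 1953 CPM and higher by 0.86 to 1.56 within blocks. Pdgfra, the receptor that marks many embryonic fibroblasts, was lower in every block (73.05 CPM against 158.9 CPM, with reads in 42.6% and 54.2% of cells). Of 16 basement membrane and matrix genes, 3 were higher and none lower, with Col4a2 at 877 CPM against 426 CPM. Col1a1 and Pdgfrb correlated over all of the cells (rho 0.51), but within blocks the values were -0.18 to 0.27.

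Mesenchymal transcription factors did not move as a group. Of 27 measured, 4 were at least 2-fold higher and 4 lower, with a median of -0.22 (all measured genes: 5.36% higher, 13.2% lower). Besides Myocd the higher ones were Heyl, a Notch target of mural cells (566 CPM against 168.2 CPM), Ebf1, a factor of mural and stromal cells (140 against 48.4), and Tcf21 (8.04 against 1.21, in 5.94% of cells). Twist1 was at 10.6 CPM against 24.8 CPM and lower in every block. Meox1 and Meox2, factors of the somites, were at 7.02 against 45.7 CPM and at 0 against 11.2 CPM, where Meox2 had reads in none of the cells. Foxf1, a factor of the gut wall mesenchyme, had reads in 4.95% of cells.

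In the Notch pathway, 2 of 10 measured genes were higher (Heyl and Hey2) and 1 lower (Mfng), with a median of 0.41. Notch3, the receptor of smooth muscle, was at 149.1 CPM against 102.9 CPM, and Jag1, a ligand, at 219.1 CPM against 138.5 CPM. In the hedgehog pathway, 1 of 10 measured genes was higher and 2 lower (Hhip and Gas1). Over all measured genes 5.36% were higher and 13.2% lower, and 10 genes are too few to set either pathway against these shares. Hhip, a secreted antagonist, was at 5.19 CPM against 15.4 CPM and lower in every block.

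Of 22 measured secreted signals of the niche, 1 was at least 2-fold higher and 8 lower (all measured genes: 5.36% higher, 13.2% lower). Their median was -0.15. The higher one was Cxcl12, the chemokine that holds blood stem cells, at 1832 CPM against 766 CPM in Mes het cells and 92.5 CPM in endothelial-gene gate cells. It had reads in 99% of cells, against 33.9% of endothelial-gene gate cells, and within blocks it was higher by 0.15 to 1.24. Against the 40 marker-positive Mes cells (969 CPM) and the Mes cells of the same blocks it was under 2-fold (0.92 and 0.94), and none of the signals was at least 2-fold higher there. Kitl, the ligand of KIT, was lower in every block (2.34 CPM against 31.99 CPM, in 8.91% against 16.7% of cells), but the 40 marker-positive Mes cells had 3.25 CPM. Wnt5a (12.5 against 53.9 CPM), Ptn (36.1 against 217.9), Vegfa (5.11 against 12.5) and Igf1 were lower in every block as well. Angpt2, a vessel-destabilising ligand of TEK and among the genes furthest above endothelial-gene gate cells, was at 774 CPM against 197.96 CPM and higher by at least 1.61 in every block. Against the 40 marker-positive Mes cells (416.3 CPM) Angpt2 was under 2-fold (0.895).

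Kit was read in about as many of these cells as not, although the gate excluded KIT protein. It was at 89.7 CPM (49.5% of cells) against 28.96 CPM in Mes het cells (22.9%) and 65.1 CPM in endothelial-gene gate cells (37.7%). Mes KO cells had 111.4 CPM (52.9%), so Kit reads were not particular to the HE gate. The difference from Mes het cells was 0.96, 3.56, 6.14 and 0.20 within blocks. Runx1, the gene of the reporter, was at 36.05 CPM in the non-endothelial gate cells (50.5% of cells, exact interval 40.4 to 60.6%), 39.4 CPM in Mes het cells (42.7%) and 4.90 CPM in endothelial-gene gate cells (10.8%, 6.01 to 17.4%). After every cell was thinned to 100000 reads the shares were 47.5%, 37.5% and 8.46%. The non-endothelial gate cells and the Mes cells were thus near each other for Runx1 (log2 -0.52 to 0.39 within blocks), and both had it more often than the endothelial-gene cells of the gate. Cbfb, the partner of the RUNX proteins, was at 40.7 CPM against 97.5 CPM in Mes het cells. Runx2 was at 2.07 CPM against 11.9 CPM, and Runx3 and Gfi1b had no reads in these cells.

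Genes of the cell cycle differed in part. Of 16 DNA replication genes none differed 2-fold from Mes het cells (median -0.22), and 81.2% of cells had reads of at least 9 of them against 86.5%. Of 16 mitosis genes, 8 were at least 2-fold lower and none higher (median -0.97), and 35.6% of cells had reads of at least 9 of them against 57.3%. Over all measured genes 13.2% were lower. Mki67, the proliferation marker, was at 148.2 CPM against 388 CPM, and Top2a at 293 CPM against 612 CPM, each lower in every block. Ccnb1, cyclin B, was 0.43 higher in block 1 and 1.24 to 2.57 lower in the others. Against the 40 marker-positive Mes cells 1 of 16 was lower (median -0.36), and against endothelial-gene gate cells none differed 2-fold.

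Some endothelial genes that were not among the 8 of the rule had reads in part of the non-endothelial gate cells. Cldn5, Sox17, Robo4 and Dll4 were at or under 0.05 CPM in the non-endothelial gate cells. Cd93, a receptor of endothelial cells, was at 111.3 CPM and had reads in 60.4% of the cells, against 61.9 CPM in Mes het cells (11 of 96 cells), 27.2 CPM in the marker-positive Mes cells and 1428 CPM in endothelial-gene gate cells. It was at least 2-fold higher than in the Mes cells of every block, as was Sox18 (19.8 CPM, in 16.8% of cells). Over the non-endothelial gate cells Cd93 was the gene most like Actg2 (rho 0.50, and 0.13 to 0.63 within blocks). Where its reads came from was not tested. Cdh5, the surface protein of the gate, was at 1.03 CPM with reads in 5.94% of cells, against 12 of 96 Mes het cells. The sum of the 29 other endothelial genes was 12.2 to 1477 CPM per cell (median 371) in the non-endothelial gate cells and 772 to 39113 (median 21688) in endothelial-gene gate cells. In Mes het cells it was 0 to 25429 CPM, with a median of 173.97, below that of the non-endothelial gate cells. Of the 96 Mes het cells, 4 had reads of at least 15 of the 29 genes, and their reads are part of the Mes sums. By summed reads the median difference of these genes from all Mes het cells was -3.13, with 22 of 27 lower and none higher. From the Mes cells of the same blocks it was 0.83, with 6 of 13 higher and 1 lower, so the direction turned with the choice of Mes cells. The hemogenic and hematopoietic list did likewise (-3.23 and 0.03).

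Of the other cell types, markers of leukocytes, red cells, mesothelium and gonad were low. Of 13 leukocyte genes all were at least 2-fold lower than in the 96 Mes het cells, which include the 13 leukocyte-gene cells. Without those 13 cells, and likewise against the Mes cells of the same blocks, 1 of the 13 genes was measured and it was lower (-2.36 and -2.71). The list had a summed level of up to 101.96 CPM per cell against up to 12129 CPM. Ptprc, the pan-leukocyte gene, had no reads in these cells and reads in 13 of 96 Mes het cells. The erythroid genes besides globins summed to at most 230.7 CPM per cell, and Klf1 and Slc4a1 were at 0. No measured gene stood for the liver. Of 6 measured mesothelial and gonadal genes 5 were lower in every block: Wt1 (3.90 against 70.9 CPM), Nr5a1 (0 against 29.4), Gata4 (5.18 against 48.1), Aldh1a2 (0.03 against 41.2) and Lhx9 (3.201 against 21.3). Wt1, a factor of mesothelium and gonad, was also lower than in the 40 marker-positive Mes cells (28.8 CPM), while Gata4 was at 0.04 CPM there. The sclerotome and cartilage genes were not low as a group, with a sum of 569.4 CPM against 526.5 CPM in Mes het cells. Sox9 was at 24.8 CPM against 104.4 CPM, the 1 of 6 measured that differed 2-fold (median -0.43). Against the 40 marker-positive Mes cells (381.9 CPM) 2 of 6 were higher and 1 lower, with a median of 0.60. Against the Mes cells of the same blocks none was higher and 3 of 6 were lower, with a median of -0.79. Of 22 measured Hox genes, which mark position along the body axis, 5 were lower and none higher. Their median of -0.14 is near the -0.13 of all measured genes, of which 13.2% were lower. Those 5 include Hoxc5 (29.6 against 89.9 CPM) and Hoxa5 (37.8 against 87.9 CPM). Against the 40 marker-positive Mes cells 1 of 24 Hox genes was higher and 7 were lower, with a median of -0.37. Over all genes measured there 7.57% were higher and 6.75% lower. Against the Mes cells of the same blocks 1 of 22 Hox genes was higher and 6 were lower, with a median of -0.38. Of all 11423 genes measured there 717 were higher and 1264 lower. Of 12 immediate early genes, which respond to cell dissociation, 2 were lower (Fosb and Zfp36) and none higher, a share near that of all genes. When set against the 40 marker-positive Mes cells, 1 was higher and none lower.

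**Figure D5:**
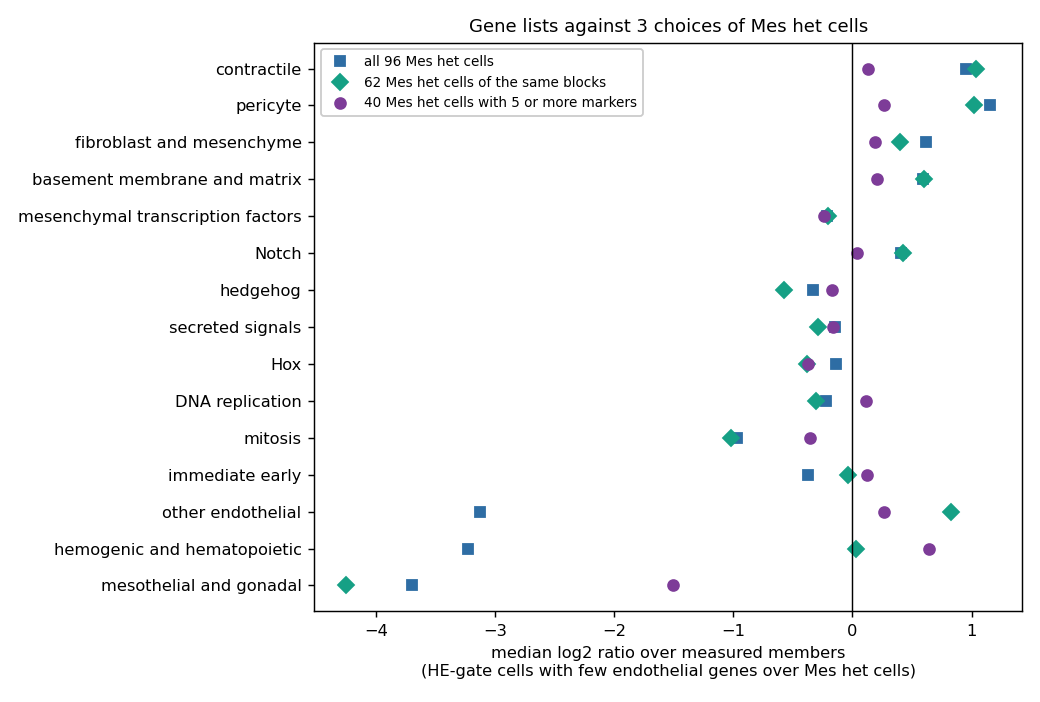
Median log2 ratio of the measured members of 15 gene lists (x axis), the non-endothelial gate cells over all 96 Mes het cells (blue squares), over the 62 of the same blocks (green diamonds) and over the 40 with at least 5 markers (purple circles). The contractile and pericyte lists lie near 1 for the first 2 choices and near 0 for the third, and the endothelial list changes sign with the choice. The contractile and pericyte lists hold some of the markers by which the third set was picked.

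Against the endothelial-gene cells of their own gate the cells differed in far more genes, which follows from the rule that split them and is given as a description. Of 11672 measured genes 15.9% were at least 2-fold higher and 17.7% lower. Of the contractile genes 17 of 18 were higher, and of the 29 other endothelial genes all were lower. Des, the muscle intermediate filament, was at 115.8 CPM against 0.014 CPM, and Cnn1 at 512 CPM against 3.49 CPM. Iigp1, an interferon-inducible GTPase, and Adamts2, a procollagen protease, were at 176.1 and 175.9 CPM and had no reads in the 130 endothelial-gene gate cells. Epha7, a guidance receptor, was at 253.8 CPM against 0.97 CPM and did not differ 2-fold from Mes het cells (204.5 CPM). On the other side Vwf was at 0.15 CPM against 2090.0 CPM, and Gja4 and Gja5, arterial connexins, at 4.49 and 4.44 CPM against 1946 and 1957 CPM.

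In whole profiles over 12216 genes all non-endothelial gate cells were nearer to the mean of the Mes het cells (Spearman rho 0.57 to 0.74, median 0.65) than to that of the endothelial-gene gate cells (median 0.55). The same held for 92 of 96 Mes het cells and 1 of 130 endothelial-gene gate cells. The contractile sum exceeded that of the 29 endothelial genes in all of them, in 88 of 96 Mes het cells and in 1 of 130 endothelial-gene gate cells. By both measures no member lay with the endothelial-gene cells. Since the rule had split the gate by endothelial genes, this is a description and no separate support. The contractile sum of the middle 80% of the cells ran from 14124 to 50965 CPM and the pericyte sum from 1261 to 6518 CPM, and both were weakly related to reads per cell (rho 0.29 and -0.25).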

How the data were processed

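Read counts per gene and cell were used as the authors deposited them, raw and not normalized, in a table of 1288 cells in 16 groups (whole numbers with differing totals). The submitters' processing notes name bcl2fastq, STAR 2.4.2a, HTSeq 0.6.1p1, R 3.6.2 and GRCm38. Annotation release, strand setting and cell filters: not given in the sources used here, and so reads of a gene and an antisense partner cannot be told apart. No molecular identifiers mark Smart-seq2 molecules, and intervals therefore cover counting error only. The copy used here held 36131 whole gene rows, and later rows were not analysed here. Gene overlaps were taken from GENCODE vM21 and promoters from RefSeq (GRCm38.p6).

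Groups followed the labels. Of 262 HE-gate cells titled het, 231 were within the limits and 101 met the rule. The Mes gate held 107 het cells, and 277 HE-gate cells were titled KO, with depths between 222256 and 1209203 reads per cell in the groups compared. No doublet caller was run, and no cells were clustered. Values are summed reads scaled to CPM, and a gene counted as measured with 5 CPM in the higher sum and as higher or lower from 2-fold on, with a sum under 3 reads set to 3. Ratios by the median of all gene ratios differ from these by a shift of -0.12 on the log2 scale against Mes het cells. Python 3.11.15 with numpy 2.4.6, pandas 2.3.3, scipy 1.17.1 and matplotlib 3.10.9 was used, and the scripts were tested on simulated data.

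The members, the 26 gene lists and the comparisons were chosen with earlier results of these data known. A gene could be named from 20 CPM on where its higher group had it in 25% of cells, provided that sums and per-cell means both differed 2-fold. Ranked by log2 ratio after adding 1 CPM, 12 from each end were taken, leaving out mitochondrial, ribosomal, unnamed, pseudogene and sex-linked genes. Markers, gate genes and, of each list, the 4 members with the highest level and the 4 with the largest difference were open to naming, and list members named beyond these were chosen after their values were seen. The blocks, the 62 Mes cells of the same blocks, the 40 marker-positive Mes cells and the Mes cells without leukocyte-gene cells were added after the data were seen. Some genes that the rule names are not reported here.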

Additional observations from a re-analysis of the deposited data

How the results depend on the processing

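No paired analysis was possible because each group was 1 sample and no label gave groups shared replicate numbers. A comparison of cells titled het with cells titled KO under the same rule was not made, since 1 cell titled KO met it. The number of members stayed the same under 6 other limits and was 74 with fewer than 2 endothelial genes. The number of genes at least 2-fold apart from Mes het cells was 2165 and ranged from 1597 to 2290 over the alternatives that kept the filter on low values, with 7001 without it. Against endothelial-gene gate cells it was 3924, and 8817 without the filter. Of the genes called against Mes het cells, 28.9% were higher, and 37.2% with the median of gene ratios as scaling, 36.2% against the Mes cells of the same blocks and 52.8% against the 40 marker-positive Mes cells.

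Of 30 named genes, 10 lost their call or direction against those 40 cells, where Arl5c became 0.11, Cfp 0.28 and Gja1 0.073. Ube2l6 became -1.18 when all Mes het cells were kept. Of the 8 endothelial genes of the rule, 4 were measured against each narrower Mes set, with median differences of 1.19 from the Mes het cells that meet the rule, 0.87 from the 40 marker-positive ones and 1.51 from those of the same blocks, in place of -3.23 over all 8. The other endothelial genes had 0.30 (15 genes), 0.26 (13) and 0.83 (13) in place of -3.13 (27). The hemogenic list had 0.64 (7 genes) and 0.029 (8) from the last 2 in place of -3.23 (16). These medians cover fewer genes than the main ones, since genes low in both groups are not measured. The epithelial list against endothelial-gene gate cells was -1.69, and 1.47 without the filter, which admits more of its low genes. The cause of the other changes was not tested. A gene under 3 reads in both sums could not be told apart at this depth.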
